A study of Mus musculus with 24 samples.

Results

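The AP-2 family of transcription factors, *Tfap2a*, *Tfap2b*, *Tfap2c*, *Tfap2d* and *Tfap2e*, was examined in untreated medulloblastomas of *G-Smo* and *M-Smo* mice. Members were taken as the probe sets annotated to 1 of these genes alone. All 5 genes were measured, by 6 of the 41345 probe sets on the array, and the arrays name 22180 genes in this way. *Tfap2d* had 2 probe sets and was represented by the one selected for its higher mean log2 value over the 12 untreated tumors. The 4 other genes had 1 each. Both genotypes were C57BL/6 mice that carried the *SmoM2* allele, a constitutively active form of the SHH receptor component Smoothened, and tumors were harvested at P15. In *G-Smo* mice *SmoM2* was activated by *hGFAP-Cre*, which acts in neural stem cells and so in more than one lineage, and in *M-Smo* mice by *Math1-Cre*, which acts in cells committed to the granule neuron lineage. The comparison asks whether tumors of these origins differ in AP-2 transcripts. It holds 6 *G-Smo* and 6 *M-Smo* tumors with 1 array each, and the labels give a number for each tumor but no sex, litter or batch.

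AP-2 proteins bind DNA as dimers through a basic and helix-span-helix region that the family shares, and prefer the palindrome GCCNNNGGC. They act early in development, where they keep precursors dividing or commit them to a fate. *Tfap2a* is required for the neural crest and the face, and *Tfap2b* for neural crest derivatives and the kidney. In the mouse retina and cerebellum both are made in inhibitory neurons, where they lie downstream of *Ptf1a*, the factor that commits ventricular zone progenitors to the GABAergic fate. *Tfap2c* is known from trophoblast and germ cells, *Tfap2d* from the midbrain and retina, and *Tfap2e* from the olfactory system. Granule neuron precursors, from which SHH medulloblastomas grow, arise instead from the *Atoh1* lineage of the rhombic lip.

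The 2 members whose levels differed between the genotypes, *Tfap2a* and *Tfap2b*, are shown by the 250 bases before a start of transcription, in the RefSeq promoter table of build GRCm38.p6. Capitals mark an E-box (CANNTG), the sequence bound by basic helix-loop-helix factors such as Ptf1a and Atoh1.
*Tfap2a*, chr13:40734921-40735170, minus strand: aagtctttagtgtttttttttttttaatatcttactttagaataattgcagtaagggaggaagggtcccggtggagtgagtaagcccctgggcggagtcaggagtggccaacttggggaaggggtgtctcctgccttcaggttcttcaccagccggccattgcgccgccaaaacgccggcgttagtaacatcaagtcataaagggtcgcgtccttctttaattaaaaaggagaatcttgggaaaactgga
*Tfap2b*, chr1:19211804-19212053, plus strand: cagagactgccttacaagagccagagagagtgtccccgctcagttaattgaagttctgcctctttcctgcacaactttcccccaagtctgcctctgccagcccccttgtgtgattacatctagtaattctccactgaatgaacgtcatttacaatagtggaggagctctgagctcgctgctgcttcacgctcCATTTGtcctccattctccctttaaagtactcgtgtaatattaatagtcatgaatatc
The *Tfap2b* window holds 1 E-box, which starts 58 bases before the start of transcription (position -58), and the *Tfap2a* window holds none. A second window of *Tfap2a* holds none either, *Tfap2e* has 3 in its 1 window, and the 3 windows of *Tfap2d* hold 0, 0 and 3. Among all 32851 windows of this length in the table, 66.2% hold an E-box. No window of these 4 members holds the AP-2 palindrome on either strand, which 13.7% of all windows do, or the letters TATAAA, which 12.4% do. These are matches of letters in short windows and show no binding. On chromosome 1, *Tfap2d* and *Tfap2b* lie next to each other but for 1 gene in the RefSeq order. *Tfap2a* is overlapped by the non-coding gene *Gm26688* and *Tfap2d* by *Gm15825* and *Gm10075*.

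All levels below are log2 intensities of a probe set, on which 1 unit is a 2-fold change. A probe set's level can be compared between tumors but not with that of another probe set, so the members are not ranked by level. Medians of the arrays lay at 6.39 to 6.42 (*G-Smo*) and 6.38 to 6.41 (*M-Smo*), and arrays of different genotype correlated about as closely (r from 0.981 to 0.990, 36 pairs) as arrays of 1 genotype (0.984 to 0.992, 30 pairs). Tissue markers were present as labelled: *Atoh1*, which defines the granule neuron lineage, stood at 12.14 in *G-Smo* tumors and 11.95 in *M-Smo* tumors, and none of 10 granule lineage and proliferation genes passed the test.

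*Tfap2a* (probe set 17292011), the neural crest and interneuron factor, was 2.03-fold lower in *G-Smo* tumors. In *G-Smo* tumors 1 to 6 it measured 6.26, 6.28, 5.58, 6.55, 6.34 and 6.47, against 7.40, 7.25, 7.32, 7.03, 7.30 and 7.30 in *M-Smo* tumors 1 to 6. Every *G-Smo* tumor lay below every *M-Smo* tumor, with a gap of 0.48 between the groups. The means were 6.25 ± 0.35 in *G-Smo* tumors and 7.27 ± 0.12 in *M-Smo* tumors (SD, n = 6 each), a difference of -1.02 (SE 0.14, 95% interval -1.32 to -0.72). It passed limma's test after Benjamini-Hochberg adjustment across the whole array (adjusted p = 0.00403). An exact two-sided permutation test gave p = 0.00216, the smallest that 6 tumors against 6 allow. The SD was 2.78 times as large in *G-Smo* tumors, where tumor 3 lay well below the other five. Without that tumor the difference was -0.89 (adjusted p = 0.000386). *Tfap2a* stands in the study's own list of differing transcripts, which was chosen on these tumors, so its difference here describes the same data.

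*Tfap2b* (probe set 17211347), which in the cerebellum marks inhibitory interneurons, was 1.90-fold lower in *G-Smo* tumors. Its levels were 6.84, 6.56, 5.89, 6.99, 6.01 and 6.51 in *G-Smo* tumors 1 to 6, against 7.76, 7.19, 7.59, 7.08, 7.42 and 7.29 in *M-Smo* tumors 1 to 6. The groups did not overlap, but only 0.092 separated the highest *G-Smo* tumor, number 4, from the lowest *M-Smo* tumor, also numbered 4. The means were 6.47 ± 0.44 in *G-Smo* tumors and 7.39 ± 0.25 in *M-Smo* tumors (SD, n = 6 each), and the difference of -0.92 (SE 0.19, 95% interval -1.33 to -0.52) passed the same test (limma, adjusted p = 0.0263). The exact permutation p was again 0.00216. This call lay near the threshold: the adjusted p was 0.0614 without *G-Smo* tumor 5, 0.0557 without *G-Smo* tumor 6, 0.0508 without *M-Smo* tumor 1, 0.0531 without *M-Smo* tumor 3 and 0.0504 without *M-Smo* tumor 5 (limma). The difference itself stayed between -1.03 and -0.81 whichever tumor was left out.

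**Figure D1:**
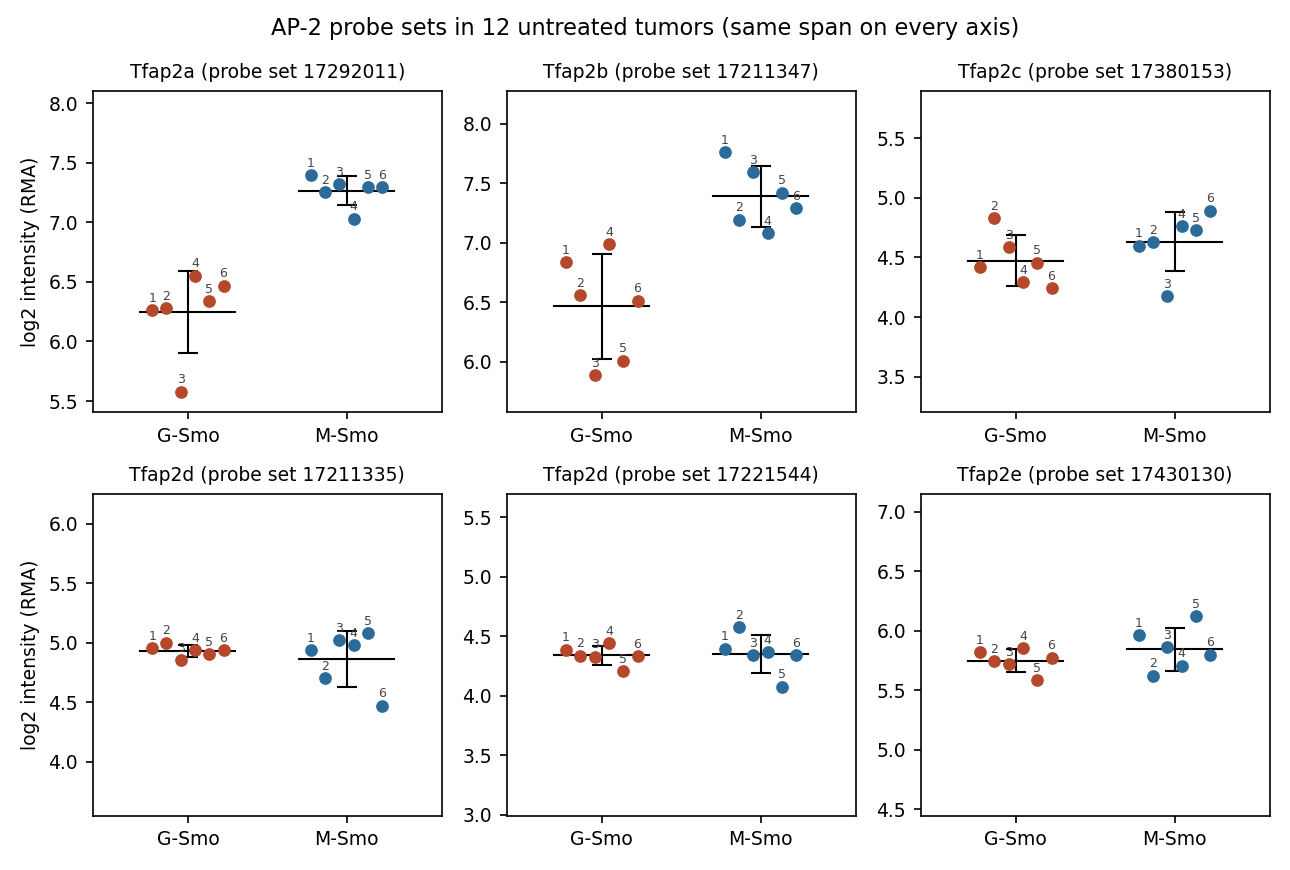
Log2 intensity (vertical axis) of the 6 AP-2 probe sets in *G-Smo* tumors (red, left) and *M-Smo* tumors (blue, right). Each numbered point is 1 tumor, the wide line is the mean and the bar is the SD (n = 6), and every axis spans the same number of log2 units. The groups do not overlap for *Tfap2a* and *Tfap2b*, and overlap in the 4 other panels.

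The other 3 members did not pass the test. *Tfap2c* (probe set 17380153), the trophoblast and germ cell member, ranged from 4.24 to 4.83 in *G-Smo* tumors and from 4.18 to 4.89 in *M-Smo* tumors, with a difference of -0.16 (95% interval -0.43 to 0.11, limma adjusted p = 0.527). *Tfap2e* (probe set 17430130), the olfactory member, ranged from 5.58 to 5.85 in *G-Smo* tumors and from 5.62 to 6.12 in *M-Smo* tumors, with a difference of -0.10 (95% interval -0.28 to 0.085, adjusted p = 0.579). *Tfap2d* (probe set 17211335), the midbrain and retina member, ranged from 4.85 to 5.00 in *G-Smo* tumors and from 4.47 to 5.08 in *M-Smo* tumors, with a difference of 0.06 (95% interval -0.14 to 0.27, adjusted p = 0.762). None of the 3 intervals reaches the size of the *Tfap2a* or *Tfap2b* difference. The second *Tfap2d* probe set (17221544), the one not selected, had a mean of 4.34 in *G-Smo* tumors and 4.35 in *M-Smo* tumors and a difference of -0.01 (95% interval -0.17 to 0.15, adjusted p = 0.961). *Tfap2c* and *Tfap2d* lay in the dimmest 40% of probe sets, and since the values carry no call of detection, a transcript that is not made cannot be told apart there from one that is made at a low level.

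So 2 of the 5 members, *Tfap2a* and *Tfap2b*, passed the test, both lower in *G-Smo* tumors. Over the whole array 1057 of 41345 probe sets passed (2.56%), 532 of them lower in *G-Smo* tumors (1.29%) and 525 higher (1.27%). The share that was both called and at least 2-fold lower was 0.0508% (21 probe sets), *Tfap2a* among them. In 1.57% of all probe sets (648) every *G-Smo* tumor lay below every *M-Smo* tumor, as for *Tfap2a* and *Tfap2b*. In order of the log2 difference from the lowest, *Tfap2a* was number 51 and *Tfap2b* number 83 of all probe sets. The family was taken up with earlier results of these data known, so its count is a description. In bulk tumors, fewer cells that make a transcript and less of it per cell cannot be told apart.

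**Figure D2:**
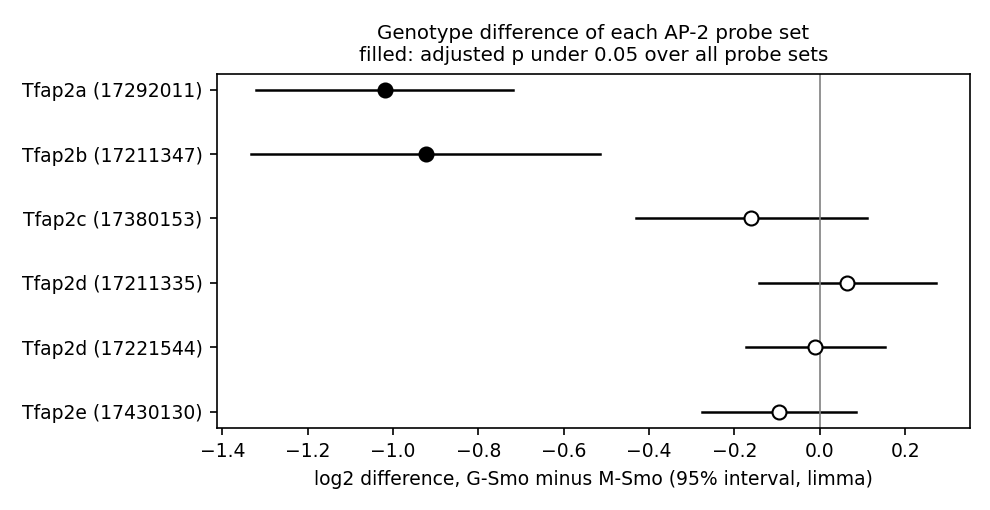
Log2 difference, *G-Smo* minus *M-Smo* (horizontal axis), of each AP-2 probe set over 6 tumors of each genotype, with its 95% interval from limma. Filled points passed the test over all probe sets: *Tfap2a* at -1.02 and *Tfap2b* at -0.92, while the intervals of the 4 other probe sets include 0.

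The 12 untreated tumors differ in *Xist*, the transcript of the inactive X chromosome, which was above 10 log2 units in 5 of 6 *G-Smo* and 2 of 6 *M-Smo* tumors. In tumors with high *Xist*, *Tfap2a* measured 5.58 to 6.55 in *G-Smo* (n = 5) and 7.30 and 7.40 in *M-Smo* (n = 2). In tumors with low *Xist* it measured 6.47 in the 1 *G-Smo* tumor and 7.03 to 7.32 in *M-Smo* (n = 4). *Tfap2b* measured 5.89 to 6.99 in *G-Smo* and 7.29 and 7.76 in *M-Smo* with high *Xist*, and 6.51 in *G-Smo* and 7.08 to 7.59 in *M-Smo* with low *Xist*. Because no *G-Smo* tumor reached any *M-Smo* tumor for either gene, every division of the tumors gives this order, so these values do not test the part of sex, and the low side holds a single *G-Smo* tumor. With a sex-linked gene score added to the model, the limma adjusted p was 0.0236 for *Tfap2a* and 0.0630 for *Tfap2b*, with log2 differences of -1.01 and -0.99. This division by *Xist* was added after the values had been seen.

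AP-2 proteins act with coactivators of the Cited family and the acetyltransferases Ep300 and Crebbp, and are held back by Kctd1 and Kctd15. None of the 8 measured genes of this group passed the test, and their median difference was 0.05, beside 0.00347 over all probe sets. The smallest adjusted p values in the group belonged to the coactivators *Cited4* (log2 difference -0.21, limma adjusted p = 0.203) and *Cited2* (0.16, adjusted p = 0.227). *Kctd1* differed by -0.11 and *Kctd15* by 0.10. The mean level of the group was 9.52 to 9.61 in *G-Smo* tumors, against 9.49 to 9.59 in *M-Smo*, so the tumors overlapped.

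Among 13 measured genes that the literature names as AP-2 targets, mostly from human cell lines and other tissues, *Kit* alone passed the test. Over the whole array 1.29% of probe sets were called lower in *G-Smo* tumors. *Kit*, a receptor tyrosine kinase of melanocytes, germ cells and cerebellar molecular layer interneurons, averaged 8.62 ± 0.12 in *G-Smo* tumors and 9.17 ± 0.18 in *M-Smo* tumors (SD, n = 6 each), a difference of -0.56 (SE 0.089, limma adjusted p = 0.00945) with no overlap. All 13 differences were below 0, with a median of -0.21. The insulin-like growth factor binding protein *Igfbp5* (-0.38, adjusted p = 0.0732), the neuregulin receptor *Erbb3* (-0.27, adjusted p = 0.0959) and the adhesion molecule *Mcam* (-0.29, adjusted p = 0.100) did not pass. The mean over the 13 genes was 7.49 to 7.59 in *G-Smo* tumors, against 7.67 to 8.03 in *M-Smo*. For several of these genes other cell types are a known source, and how much of their difference is tied to *Tfap2a* or *Tfap2b* was not tested. Of the 11 of them with a promoter window, 5 held the AP-2 palindrome, beside 15.4% of all 27025 genes in the table. Among lists not chosen as targets, 3 of 7 granule lineage genes and 2 of 6 cofactors and regulators with a window held it. So did 2 of 9 inhibitory lineage genes and 3 of 15 leptomeningeal genes. These shares were not tested against each other. The palindrome of *Kit* is shown as the called target, and that of *Pax2*, the interneuron gene described next, for comparison. Both are on the plus strand, with the palindrome in capitals.
*Kit*, chr5:75574843-75574871: cagcccgagaGCCCCGGGCactaggcagc
*Pax2*, chr19:44755634-44755662: cagagactggGCCAGCGGCtctggtagga

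*Tfap2a* and *Tfap2b* were next set beside markers of the inhibitory lineage of the cerebellum. Of 11 measured genes, *Pax2*, which marks precursors of the inhibitory interneurons, passed the test, beside 1.29% of all probe sets called lower. Of the 11 differences 9 were below 0, with a median of -0.56, beside 0.00347 over all probe sets. *Pax2* measured 5.50 to 6.15 in *G-Smo* tumors, against 6.53 to 7.04 in *M-Smo*, a difference of -0.87 (SE 0.13, limma adjusted p = 0.00668) with no overlap. The genes of GABA synthesis *Gad2* (-0.80, adjusted p = 0.0591) and *Gad1* (-0.56, adjusted p = 0.0849), the LIM factor *Lhx5* (-0.64, adjusted p = 0.0736) and the commitment factor *Ptf1a* (-0.22, adjusted p = 0.124) did not pass. The 2 genes with differences above 0, which did not pass either, were *Pax3* (0.25, 95% interval 0.025 to 0.47, adjusted p = 0.218), a factor of inhibitory precursors and of the neural crest, and the LIM factor *Lhx1* (0.07, adjusted p = 0.626). The glycine transporter *Slc6a5*, named after its values were seen, ranged from 6.11 to 6.91 in *G-Smo* tumors and from 6.89 to 9.85 in *M-Smo* tumors. The mean over the 11 genes was 6.41 to 6.84 in *G-Smo* tumors, against 6.92 to 7.44 in *M-Smo*, where tumor 1 held the highest value. The count of 1 became 2 without *G-Smo* tumor 3 and without *G-Smo* tumor 4.

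Within each genotype, *Tfap2b* followed this mean. In *G-Smo* tumors Pearson's r was 0.97 (exact permutation p = 0.00417, 0.025 after adjustment over 12 correlations) and Spearman's rho 0.94 (exact p = 0.0167, adjusted 0.0667). In *M-Smo* tumors r was 0.85 (exact permutation p = 0.00139, the smallest that 6 tumors allow, adjusted 0.0167) and rho 1 (exact p = 0.00278, adjusted 0.0167). Without the 2 tumors farthest from the median of the marker mean, r was 0.80 in *G-Smo* and 0.95 in *M-Smo*. *Tfap2a* gave r = 0.77 in *G-Smo* tumors (exact permutation p = 0.0542, adjusted 0.217; rho 0.54, exact p = 0.297, adjusted 0.510) and r = 0.67 in *M-Smo* tumors (exact p = 0.168, adjusted 0.436). The order of the *M-Smo* tumors was the same for *Tfap2a* and the marker mean (rho 1, exact permutation p = 0.00278, adjusted 0.0167), with r = 0.996 without the 2 farthest tumors. In *G-Smo* tumors r for *Tfap2a* was 0.63 without them. These correlations were added after the values had been seen, and rest on 6 tumors each. Only the means of this list, the leptomeningeal list and the choroid plexus list were correlated with the 2 genes. Whether the relation is particular to inhibitory lineage markers was therefore not tested.

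**Figure D3:**
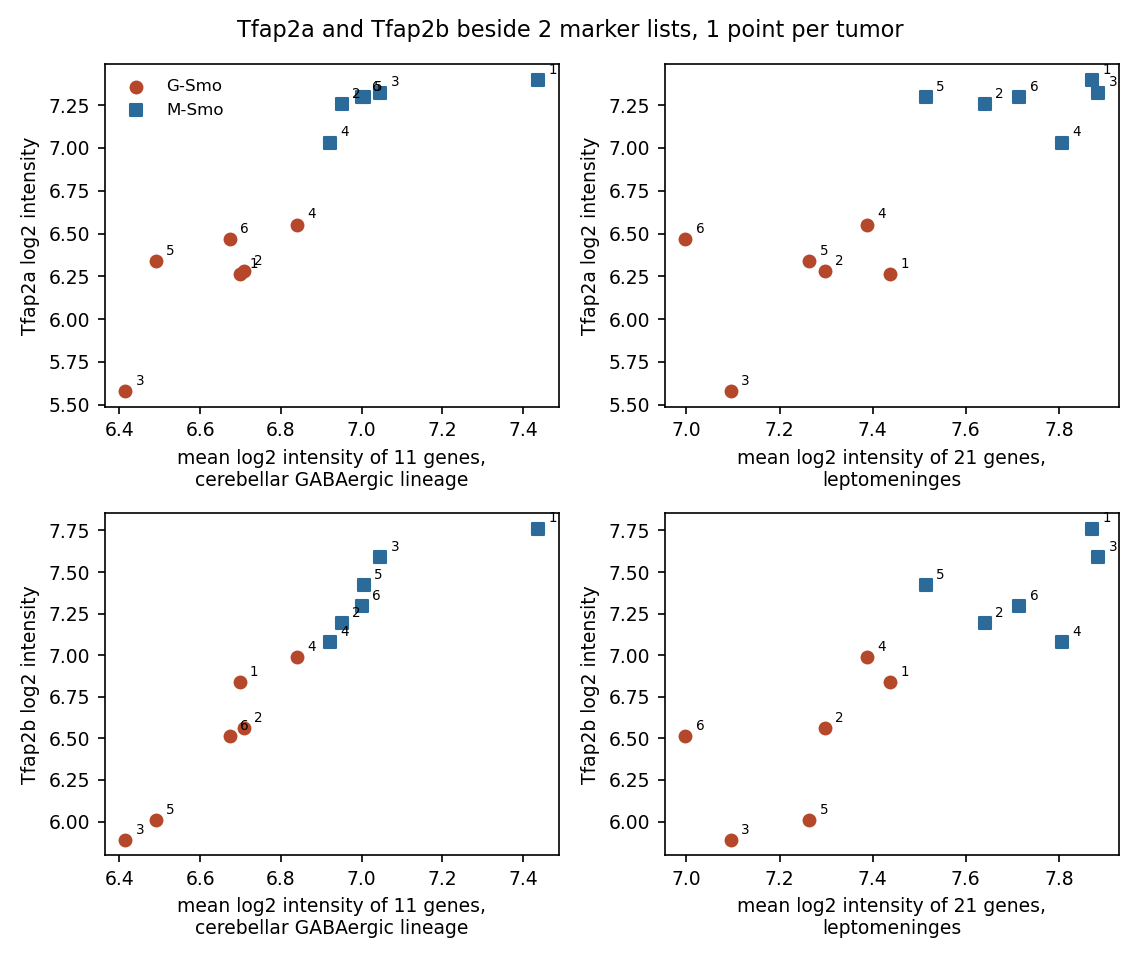
*Tfap2a* (top) and *Tfap2b* (bottom) log2 intensity against the mean log2 intensity of 11 genes of the cerebellar GABAergic lineage (left) and of 21 leptomeningeal genes (right), with 1 numbered point per tumor (red circles *G-Smo*, blue squares *M-Smo*). *Tfap2b* rises with the GABAergic mean within both genotypes (r = 0.97 in *G-Smo*, 0.85 in *M-Smo*), and against the leptomeningeal mean r is 0.58 in *G-Smo* and 0.39 in *M-Smo*, a contrast that was not tested.

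Markers of the leptomeninges, a tissue that can be dissected with a cerebellar tumor, were lower in *G-Smo* tumors too. Of 21 measured genes 11 passed the test, all lower in *G-Smo*, beside 1.29% of all probe sets called lower. Of the 21 differences 18 were below 0, with a median of -0.50, beside 0.00347 over all probe sets. The called genes include the solute transporters *Slc6a13* (-1.08, limma adjusted p = 0.000377) and *Slc22a6* (-0.96, adjusted p = 0.00280). They also include the matrix proteoglycan *Dcn* (-0.79, adjusted p = 0.00399) and the mural and mesenchymal factor *Tbx18* (-0.60, adjusted p = 0.00772). The mean over the 21 genes was 7.00 to 7.44 in *G-Smo* tumors, against 7.51 to 7.88 in *M-Smo*, without overlap. The count was 6 without *G-Smo* tumor 6, and 7 without any 1 of *G-Smo* tumors 3 and 5 and *M-Smo* tumors 3, 4 and 6. Within a genotype, no correlation of *Tfap2a* or *Tfap2b* with this mean passed (r from 0.035 to 0.58, rho from -0.029 to 0.77, exact permutation p from 0.103 to 1, adjusted p 0.308 or more). Without the 2 tumors farthest from the median of this mean, r for *Tfap2b* was 0.85 in *G-Smo* and 0.60 in *M-Smo*, and for *Tfap2a* 0.15 in *G-Smo* and 0.079 in *M-Smo*. Whether *Tfap2b* follows one of these means more closely than the other was not tested. The part of leptomeningeal cells in the *Tfap2a* and *Tfap2b* differences was not tested.

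Lists for other tissues held from 0 to 2 called genes, beside 1.29% of all probe sets called lower and 1.27% called higher. Of 10 neural crest factors, 2 passed and both were lower in *G-Smo* tumors, the endothelin receptor *Ednrb* (-0.40, limma adjusted p = 0.0136) and the homeobox gene *Msx2* (-0.44, adjusted p = 0.0365). *Ednrb* is also made by astrocytes. Of the 10 differences 7 were below 0, with a median of -0.23, beside 0.00347 over all probe sets. The neural crest genes *Sox9* (-0.30, adjusted p = 0.0963), *Snai2* (-0.32, adjusted p = 0.119), *Sox10* (-0.38, adjusted p = 0.124) and *Foxd3* (0.02, adjusted p = 0.938) did not pass. In these tumors *Sox10* is also a marker of oligodendrocytes, and the study used it as such. The mean over the 10 genes was 7.51 to 7.66 in *G-Smo* tumors, against 7.63 to 7.80 in *M-Smo*. The count of 2 became 1 in 9 of the 12 fits that left out 1 tumor. Of 8 genes of the dorsal midbrain, where *Tfap2d* is known, 2 passed and both were higher in *G-Smo* tumors. They were the POU factor *Pou4f1* (0.90, adjusted p = 0.00280) and the homeobox gene *Barhl2* (0.50, adjusted p = 0.0115). The list as a whole was not raised, as 5 of the 8 differences were below 0, with a median of -0.057. Among those 5 was *Gata2* (-0.33, adjusted p = 0.0555). None of 4 noradrenergic, 7 melanocyte and epidermal, or 5 choroid plexus genes passed. Of the melanocyte and epidermal genes 6 of 7 lay in the dimmest 40% of probe sets; among them *Tyr*, the pigment enzyme that defines melanocytes. The choroid plexus gene *Ttr* differed by -3.89 with an adjusted p of 0.110, and the mean over the 5 choroid plexus genes was 6.97 to 8.46 in *G-Smo* tumors, against 7.12 to 9.34 in *M-Smo*. *Tfap2a* and *Tfap2b* showed no correlation with that mean that passed (r from -0.61 to 0.028, rho from -0.60 to -0.26, exact permutation p from 0.194 to 0.963, adjusted p 0.436 or more).

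**Figure D4:**
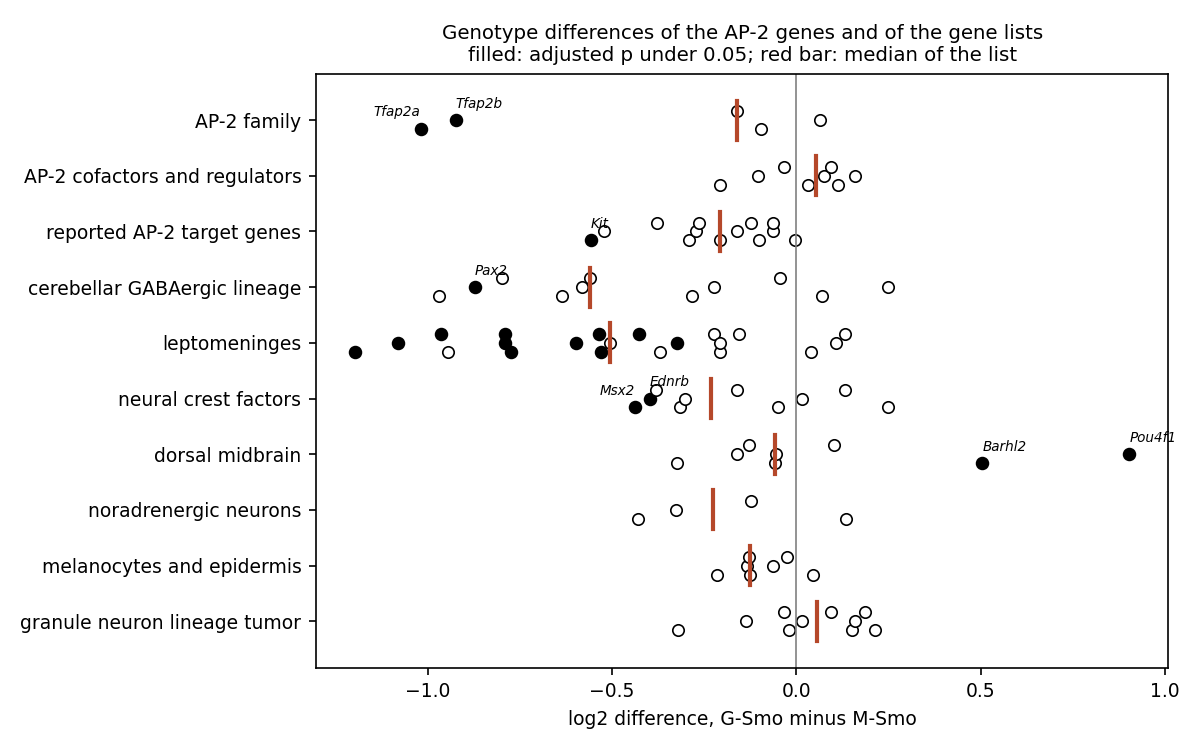
Log2 difference, *G-Smo* minus *M-Smo* (horizontal axis), of the 5 AP-2 genes and of the genes of 9 lists, with 1 point per gene. Filled points have an adjusted p under 0.05 and the red bar is the median of a list. *Tfap2a* and *Tfap2b* lie to the left with *Pax2*, *Kit*, *Ednrb*, *Msx2* and 11 leptomeningeal genes, and *Pou4f1* and *Barhl2* to the right. The 5 choroid plexus genes are not drawn.

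The members were also compared with each other within the genotypes, in 20 correlations over 6 tumors each. *Tfap2a* and *Tfap2b* gave r = 0.69 in *G-Smo* tumors (exact permutation p = 0.0875, adjusted 0.528; rho 0.49, exact p = 0.356, adjusted 0.645) and r = 0.84 in *M-Smo* tumors (exact p = 0.0167, adjusted 0.250; rho 1, exact p = 0.00278, adjusted 0.0556). Without the 2 tumors farthest from the median of *Tfap2a*, r was -0.28 in *G-Smo* and 0.93 in *M-Smo*, so the relation in *G-Smo* tumors rests on those tumors. No pair of members passed after adjustment.

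The genes most like each member were sought among 18356 probe sets with 1 symbol, by Pearson's r of the deviations of the 12 tumors from the mean of their own genotype, and are given as a description. For *Tfap2a* they were *Cacng7* (0.90), *Usp17ld* (0.90), *Nhsl2* (0.87), *Fstl4* (0.87) and *Eps8* (0.87). By rank the first was weaker, with a Spearman's rho of 0.65 for *Cacng7* and 0.80 to 0.92 for the others. For *Tfap2b* they were *Rasgrp1* (0.97), *Kcnma1* (0.96), *Psd2* (0.96), *Shisa6* (0.94) and *St8sia5* (0.94). None of the 5 genes most like *Tfap2b* passed the test between genotypes (log2 differences from -0.41 to -0.16). *Tfap2c* was followed most closely by *Slc7a6*, *Rtkn*, *Chpf*, *Caskin2* and *Fam89a* (0.92 to 0.95), *Tfap2d* by *Clec2i*, *Fam178b*, *R3hdm2*, *Myh1* and *Psg29* (0.82 to 0.94), and *Tfap2e* by *Ccl24*, *Scgb2b6*, *St8sia5*, *Cacnb2* and *Pvalb* (0.84 to 0.88). Spearman's rho of *Psg29* with *Tfap2d* was 0.58. Among the genes listed, *Tfap2a* and *Tfap2b* had none in common. *St8sia5* stood in the lists of both *Tfap2b* and *Tfap2e*, by different probe sets (17351952 and 17355508). With so many probe sets and 12 tumors, high values are also reached without any relation between genes.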

How the data were processed

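Tumors were snap frozen, and RNA of each was hybridized to 1 Affymetrix mouse gene expression array. The authors deposited a log2 intensity for each probe set, computed by robust multi-array averaging (RMA). The submitters' processing notes name Partek and RMA, and a genome build for the array annotation is not given in the sources used here. Arrays give no read depth, and the precision is limited by the number of arrays. The values of 12 further arrays, of irradiated tumors, cover 1019 probe sets, none of which has a gene symbol, so AP-2 genes in those tumors were not analysed here.

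Genotypes were compared by limma 3.58.1 (lmFit and eBayes) in R 4.3.3 over all 41345 probe sets without further normalization or filter, as *G-Smo* minus *M-Smo*. A 1-way ANOVA stands in the study methods for this comparison. P-values were two-sided and Benjamini-Hochberg adjusted over all probe sets, with a threshold of 0.05. They measure the spread between tumors, whose litters are not given. Single values were compared by exact permutation over the 924 assignments. Probe sets were named through the platform annotation where it gives 1 symbol, and a gene was represented by its brightest probe set on average. The members and the gene lists were chosen with earlier results of these data known. Of 104 listed genes, 95 were measured. Genes named are the members, up to 4 genes of each list by smallest adjusted p, marker genes, and the 5 genes most like each member, without predicted, numbered or small RNA genes. Some genes, such as *Kctd1*, *Kctd15*, *Foxd3* and *Sox10*, were named outside this rule.

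Alternatives were centring each array on its median, quantile normalization, leaving out probe sets under the 40th percentile of mean level, testing only those with 1 symbol, limma with trend and robust options, the methods' 1-way ANOVA, array weights, a block for the replicate number, a sex-linked gene score as covariate, the other *Tfap2d* probe set and leaving out each tumor. Steps were tested on simulated data. Promoters, 250 bases before a start, came from the RefSeq table of GRCm38.p6 and were searched on both strands for GCCNNNGGC, CANNTG and TATAAA, and matches of different motifs may overlap. All members but *Tfap2c* had a window. Plots were made with matplotlib 3.10.9 (Python 3.11.15).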

Additional observations from a re-analysis of the deposited data

Results flagged for a closer look

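*Tfap2a* in *G-Smo* tumor 3 measured 5.58, with the next tumor of that genotype at 6.26, and this gap made up 0.703 of the range of the 6 *G-Smo* tumors, above Dixon's limit of 0.625. Chance alone passes this limit in about 1 of 20 groups. The 6 AP-2 probe sets were each searched in both genotypes, so a flag among them can arise by chance. *G-Smo* tumor 3 was also the lowest *G-Smo* tumor for *Tfap2b* (5.89), *Pax2* (5.50) and the mean of the GABAergic markers (6.41). Without it the *Tfap2a* difference was -0.89 (limma adjusted p = 0.000386) and the *Tfap2b* difference -0.81 (adjusted p = 0.0491).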

How the results depend on the processing

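The *Tfap2a* difference kept its direction and its call under every alternative but one, with values from -1.08 to -0.89 when 1 tumor was left out. With the replicate number as a block it was still -1.02, with an adjusted p of 0.0514 over a range of 0.000386 to 0.0514 for all alternatives. The *Tfap2b* difference lost its call with the block (-0.92, adjusted p = 0.0940), with the sex-linked gene score (-0.99, adjusted p = 0.0630) and in 5 of 12 fits without 1 tumor (differences from -1.03 to -0.81). *Tfap2c* and *Tfap2e* passed under none. The *Tfap2d* difference turned to -0.014 without *M-Smo* tumor 6 (range -0.014 to 0.11), and the other probe set gave -0.010. Of the 5 members, 0 passed with the block, 1 with the score and 1 to 2 without 1 tumor.

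The labels do not say that equal replicate numbers pair the tumors. Deviations of same-numbered tumors correlated from -0.138 to 0.114, and 2 of 12 tumors were closest to their own number. Such correlations cannot tell whether same-numbered tumors shared a litter or a batch. The fit with the block called 113 probe sets, against 1057 without it, with 0 of the AP-2 targets, 0 neural crest, 0 dorsal midbrain and 3 leptomeningeal genes. The sex-linked gene score gave 420 calls, with 2 targets, 1 neural crest and 1 dorsal midbrain gene. The filter at the 40th percentile, which removes *Tfap2c* and *Tfap2d*, gave 1881 calls. Quantile normalization gave 1 noradrenergic gene. Without 1 tumor, 367 to 942 probe sets passed, with 1 to 2 targets, 1 to 2 GABAergic, 1 to 2 neural crest, 6 to 11 leptomeningeal, 0 to 1 noradrenergic and 0 to 1 choroid plexus genes. The cause of these changes was not tested. Among all calls, 49.7% were higher in *G-Smo* tumors, against 42.0% after median centring and 39.5% after quantile normalization.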
